A study of Mus musculus with 14 samples.

Results

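The unfolded protein response and the integrated stress response were followed through 10 genes in LSECs, the liver's sinusoidal endothelial cells, which form the porous wall of its capillaries. The genes were listed by name, with earlier results of these data known: Eif2ak3, Atf4, Ddit3, Xbp1, Hspa5, Herpud1, Asns, Trib3, Chac1 and Sesn2. Each matched 1 of the 23930 transcript targets in the files, and all 10 were among the 15184 targets with enough reads to be tested. The cells came from the livers of female wild-type C57BL/6J mice and had been sorted for dim CD45, high STAB2 and high CD146, with no treatment other than age named in the labels. Aged mice were 10 to 11 months old and young mice 8 to 10 weeks old. Each age had 7 libraries, 3 of them from experiment 1 and 4 from experiment 2. Aged 1.3 stands for the aged replicate 3 of experiment 1, and the other libraries are named likewise. The labels do not state that every library is a separate mouse, so the tests measure the spread between libraries, which may be partly technical.

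When unfolded proteins gather in the endoplasmic reticulum (ER), sensors in its membrane start a response on several arms. The kinase PERK, encoded by Eif2ak3, phosphorylates the translation factor eIF2, which slows most protein synthesis but favours translation of the transcription factor ATF4. Other kinases act on eIF2 when amino acids or heme are short or viral RNA is present, and this common route is the integrated stress response. The sensor IRE1 splices the Xbp1 transcript, and the sensor ATF6 is released by proteolysis. XBP1 and ATF6 raise ER chaperones and the machinery that removes misfolded proteins. LSECs, which take up and degrade large amounts of blood-borne material, carry an extensive membrane and secretory system. PERK activity, eIF2 phosphorylation, ATF4 translation and Xbp1 splicing are not seen in transcript counts.

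Short DNA elements tie several of these genes to the response, and the stretches that hold them are shown for the 4 members with a match. In the RefSeq promoter table of mouse build GRCm38.p6, all 10 members had a window, and the 250 bases before the annotated start were searched on both strands. The motifs were the ER stress response element ERSE (CCAAT, then any 9 bases, then CCACG), ERSE-II (ATTGG, then any base, then CCACG), the C/EBP-ATF response element CARE (TGATGNAA) and the unfolded protein response element UPRE (TGACGTGG). Capitals mark the fixed letters of a match, and N stands for any base. Each stretch is 120 bases long, upstream of the start and written 5′ to 3′ on the strand of its gene. Asns lies on the minus strand at chr6:7693210-7693329, and the other stretches lie on the plus strand, Hspa5 at chr2:34771970-34772089, Herpud1 at chr8:94386309-94386428 and Chac1 at chr2:119350992-119351111.
Asns: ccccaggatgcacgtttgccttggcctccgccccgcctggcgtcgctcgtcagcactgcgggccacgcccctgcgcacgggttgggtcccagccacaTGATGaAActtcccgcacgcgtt
Hspa5: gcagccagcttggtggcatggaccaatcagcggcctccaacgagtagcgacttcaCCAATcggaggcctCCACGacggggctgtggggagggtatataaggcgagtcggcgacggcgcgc
Herpud1: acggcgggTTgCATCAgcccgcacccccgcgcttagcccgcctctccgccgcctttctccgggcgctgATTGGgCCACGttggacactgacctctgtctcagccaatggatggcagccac
Chac1: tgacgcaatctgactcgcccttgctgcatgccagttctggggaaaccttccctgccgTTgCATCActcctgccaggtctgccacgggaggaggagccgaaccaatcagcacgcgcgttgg

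The CARE in Asns lies 23 to 16 bases before the start. Those in Herpud1 and Chac1 are read on the opposite strand and lie 112 to 105 and 193 to 186 bases before it. Hspa5 holds 1 full ERSE, 65 to 47 bases before the start, and Herpud1 holds 1 ERSE-II, 52 to 42 bases before it. Of all 32851 windows in the table, 3.45% held a CARE, 0.113% an ERSE, 0.0304% an ERSE-II and 0.563% a UPRE. A match is a description of the letters, and a window without one says only that these letters are not in these 250 bases. The build behind the counts is not given in the sources used here, so these positions belong to the RefSeq table alone.

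Gene reads per library ranged from 6710403 to 13977361. Values are CPM, the reads of a gene scaled to a common library size with edgeR's TMM factors. The panel counts 1 short amplicon per gene, so a CPM compares libraries for 1 gene and not 1 gene with another. Targets for odorant, pheromone and taste receptors, which belong to sensory cells, took 0.146 to 3.18% of gene reads. Their share was 1.20 to 3.18% in experiment 1, 2.93% in young 2.2, 2.81% in aged 2.4 and at most 0.961% in the other libraries of experiment 2. The LSEC receptor gene Stab2 was at 1997 ± 179.3 CPM in aged against 2081 ± 123.9 CPM in young libraries (SD). Other LSEC markers differed more, with no gene of the list passing the threshold used below: Mcam, which encodes the sort marker CD146, had a log2 fold change, aged over young, of −0.53 (edgeR adjusted p = 0.457), Lyve1 −0.65 (0.616) and Fcgr2b 0.60 (0.511). In these bulk samples, fewer cells of a type and less RNA per cell cannot be told apart.

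No member passed the threshold, a Benjamini-Hochberg adjusted p under 0.05 in edgeR's quasi-likelihood test of aged against young over both experiments. That test called 34 of all 15184 targets, 0.224%, with 18 higher and 16 lower in aged libraries (29 and 17 without TMM scaling). It called 4 without young 2.4. At an unadjusted edgeR p under 0.05 there were 3 of 10 members, against 7.40% of all targets. Asns and Atf4 were lower and Trib3 higher in aged libraries. The filter on reads kept Asns through its young libraries alone, so its part in this count is a description. In all, 6 members were lower and 4 higher in aged LSECs by log2 fold change, while 54.4% of all tested targets were higher. Ddit3 is among the 6 with a value of only −0.01, and its sign turned in other fits. The median log2 fold change, aged over young, was −0.09 over the 10 genes and 0.02 over all tested targets.

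**Figure D1:**
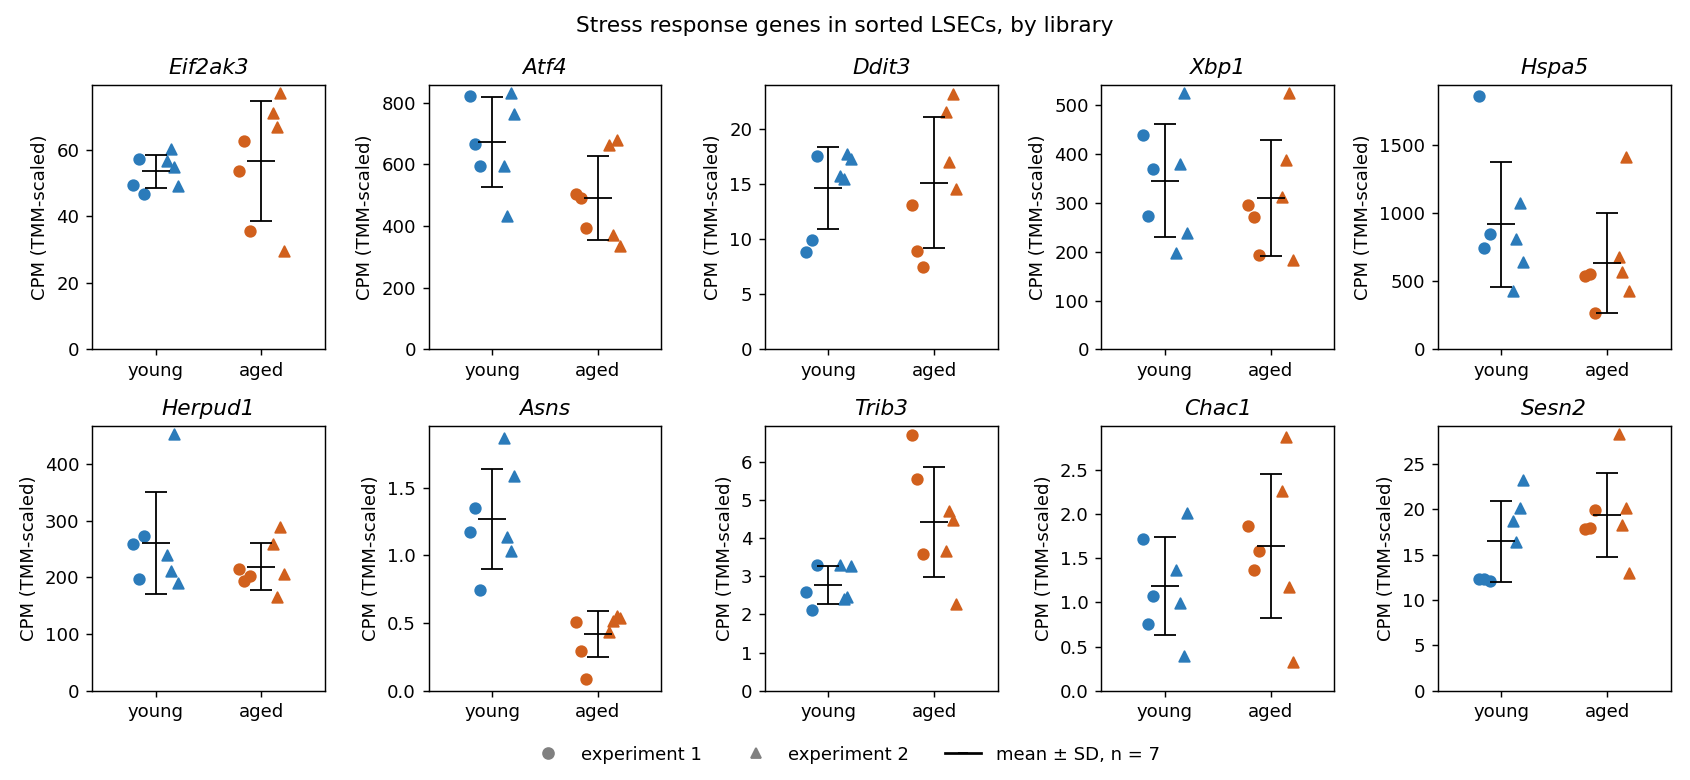
Level of each of the 10 genes (CPM, linear axes from 0) in the 7 young and 7 aged libraries, with circles for experiment 1, triangles for experiment 2 and bars for the mean ± SD. Asns is the only gene of the 10 whose aged libraries (0.0836 to 0.550 CPM) all lie below its young ones (0.744 to 1.87 CPM).

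Asns encodes asparagine synthetase, a classic ATF4 target that makes asparagine from aspartate and glutamine. Its lowest, median and highest levels were 0.0836, 0.510 and 0.550 CPM in aged libraries and 0.744, 1.17 and 1.87 CPM in young ones. The groups did not overlap: every aged library lay below every young one, in CPM and also in reads, with 1 to 7 reads in aged and 8 to 26 in young libraries. All aged libraries lay below all young ones for 24 of the 15184 tested targets, 0.158%. Asns passed the filter on reads through its young libraries alone, as every aged library lay below the level it asks for. The lack of overlap and the p-values of Asns thus belong to a gene kept for its young levels, and are descriptions. The mean was 0.417 ± 0.172 CPM in aged against 1.27 ± 0.371 CPM in young LSECs (SD, n = 7 libraries per age), 3.06-fold lower in aged (log2 fold change −1.61, SE 0.366, 95% interval −2.40 to −0.83).

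The edgeR unadjusted p of Asns was 0.000632, rank 60 of 15184, and its adjusted p was 0.158. An exact two-sided permutation of the age labels within experiments gave p = 0.00143, which is the smallest that the 1400 arrangements allow. DESeq2 called Asns (log2 fold change −1.69, adjusted p = 0.0203), among 143 targets or 0.955% of 14973. Its adjusted p was 0.0203 to 0.369 over the alternatives in which it was tested, runs without 1 library included. Both experiments had the same direction, with log2 fold changes of −1.84 (SE 0.583) in experiment 1 and −1.45 (SE 0.491) in experiment 2. The whole difference rests on 31 reads in the aged libraries and 97 in the young ones, so counting error is large. A filter on a mean of at least 5 CPM, or on reads in 7 libraries, left Asns out of the test.

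Atf4 encodes the transcription factor at the centre of the integrated stress response. It was at 335, 490.5 and 678 CPM (lowest, median, highest) in aged libraries and at 434, 664 and 832 CPM in young ones. In all, 3 aged libraries lay below all young ones, none lay above them, and the groups overlapped. The mean was 490.6 ± 137.6 against 671.9 ± 144.5 CPM (SD), 1.37-fold lower in aged (log2 fold change −0.46, SE 0.193). By edgeR the unadjusted p was 0.0335 and the adjusted p 0.635, and the exact permutation p was 0.0471. Its difference was −0.59 in experiment 1 and −0.36 in experiment 2. With the log2 share of receptor reads as a further term, Atf4 had a log2 fold change of −0.50 with a smaller SE of 0.118 (edgeR adjusted p = 0.108). In that fit 58 targets were called, 0.382%, and no member was. Atf4 passed the threshold there only when young 2.2 (84 of 15112 targets called) or aged 2.4 (155 of 15155 targets called) was left out. Both fits called more targets than the 58 with all libraries. These 2 libraries have the most receptor reads of experiment 2.

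Trib3 encodes a pseudokinase that is induced by ATF4 and CHOP and restrains both ATF4 activity and AKT signalling. Aged libraries held 2.26, 4.48 and 6.71 CPM (lowest, median, highest) and young ones 2.11, 2.58 and 3.31 CPM. In 6 of 7 aged libraries Trib3 was above every young library, the exception being aged 2.4. At least 6 of 7 aged libraries lay above all young ones for 108 of the tested targets, 0.711%. The mean was 4.43 ± 1.45 against 2.78 ± 0.505 CPM (SD), 1.57-fold higher in aged (log2 fold change 0.65, SE 0.257). By edgeR the unadjusted p was 0.0238 and the adjusted p 0.591, and the exact permutation p was 0.0186. Asns and Trib3, both described as ATF4 targets, thus had opposite signs, and neither passed the adjusted threshold in that test.

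**Figure D2:**
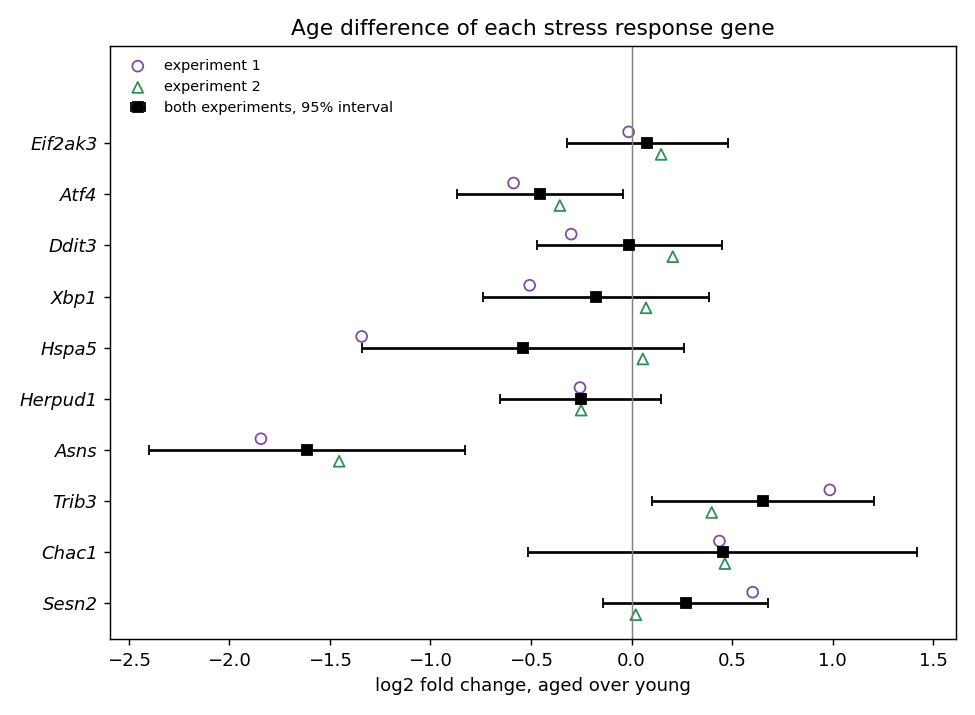
Log2 fold change, aged over young, of each gene over both experiments (squares, with 95% intervals) and within experiment 1 (circles) and experiment 2 (triangles). The intervals of Asns, Atf4 and Trib3 do not include 0, and Hspa5 has the widest gap between the experiments, from −1.34 to 0.06.

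Eif2ak3, the PERK gene and the only sensor among the members, was at 29.5, 62.6 and 77.0 CPM (lowest, median, highest) in aged and at 46.8, 54.8 and 60.3 CPM in young libraries. The aged libraries spanned a wider range than the young ones at both ends, with 4 above and 2 below every young library. Its log2 fold change was 0.08, with a 95% interval of −0.32 to 0.48.

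Ddit3 encodes CHOP, the transcription factor that ties prolonged ER stress to cell death. It was at 7.44, 14.5 and 23.2 CPM in aged and at 8.82, 15.7 and 17.7 CPM in young libraries. Its log2 fold change was −0.01 (95% interval −0.47 to 0.45), made of −0.30 in experiment 1 and 0.21 in experiment 2. Its sign turned to 0.01 without TMM scaling, so no direction is given for it.

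Xbp1 encodes the transcription factor of the IRE1 arm. Its target carries a single accession and the position of the amplicon is not given in the sources used here, so spliced and unspliced forms are not separated. It was at 183, 296 and 524 CPM (lowest, median, highest) in aged and at 198, 369 and 524 CPM in young libraries. Over both experiments the groups overlapped almost completely (log2 fold change −0.18, 95% interval −0.74 to 0.39). The log2 fold change was −0.51 (SE 0.396) in experiment 1 and 0.07 (SE 0.342) in experiment 2.

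Hspa5 encodes BiP, the ER form of HSP70 that holds the sensors inactive and is the standard readout of ER stress. It was at 269, 554 and 1410.0 CPM in aged and at 431, 813 and 1863 CPM in young libraries. Young 1.1 was the highest of the 14 and aged 1.3 the lowest, and both belong to experiment 1. Over both experiments the log2 fold change was −0.54 (SE 0.372, edgeR adjusted p = 0.942), and it was −0.28 without young 1.1 and −0.84 without aged 2.3. In experiment 1, Hspa5 was at 455 ± 161 CPM in aged against 1152 ± 617 CPM in young libraries (SD), a log2 fold change of −1.34 (SE 0.499, edgeR adjusted p = 0.711). In experiment 2 the means were 771 ± 438 and 741 ± 273 CPM, a log2 fold change of 0.06 (SE 0.425). The difference between both effects was 1.40 (SE 0.653), with an edgeR unadjusted p of 0.0524 and an adjusted p of 1.

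Herpud1 encodes an ER membrane protein that takes part in the degradation of misfolded proteins. It was at 166, 206 and 288 CPM (lowest, median, highest) in aged and at 190.4, 240 and 452 CPM in young libraries, the latter maximum in young 2.3. Its log2 fold change was −0.25 (95% interval −0.65 to 0.15), with −0.26 and −0.25 in the 2 experiments.

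Chac1 encodes an enzyme that cleaves glutathione and lies downstream of ATF4 and CHOP. It was at 0.323, 1.59 and 2.87 CPM in aged and at 0.388, 1.07 and 2.01 CPM in young libraries, on 3 to 28 reads per library. At this depth its log2 fold change of 0.45 had a 95% interval of −0.51 to 1.42.

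Sesn2 encodes sestrin 2, a leucine sensor that restrains mTORC1 and is induced through ATF4. Over all libraries it was at 13.03, 18.2 and 28.4 CPM in aged and at 12.1, 16.4 and 23.3 CPM in young LSECs (log2 fold change 0.27, 95% interval −0.14 to 0.68). In experiment 1 the aged libraries held 17.84, 17.96 and 19.99 CPM and the young ones 12.3, 12.3 and 12.1 CPM. The ages did not overlap there, as in 9.09% of all tested targets with aged above young, and the log2 fold change was 0.60 (SE 0.278, edgeR unadjusted p = 0.0502, adjusted p = 0.749). In experiment 2, aged libraries lay both above and below the young ones, and the log2 fold change was 0.02 (SE 0.240).

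**Figure D3:**
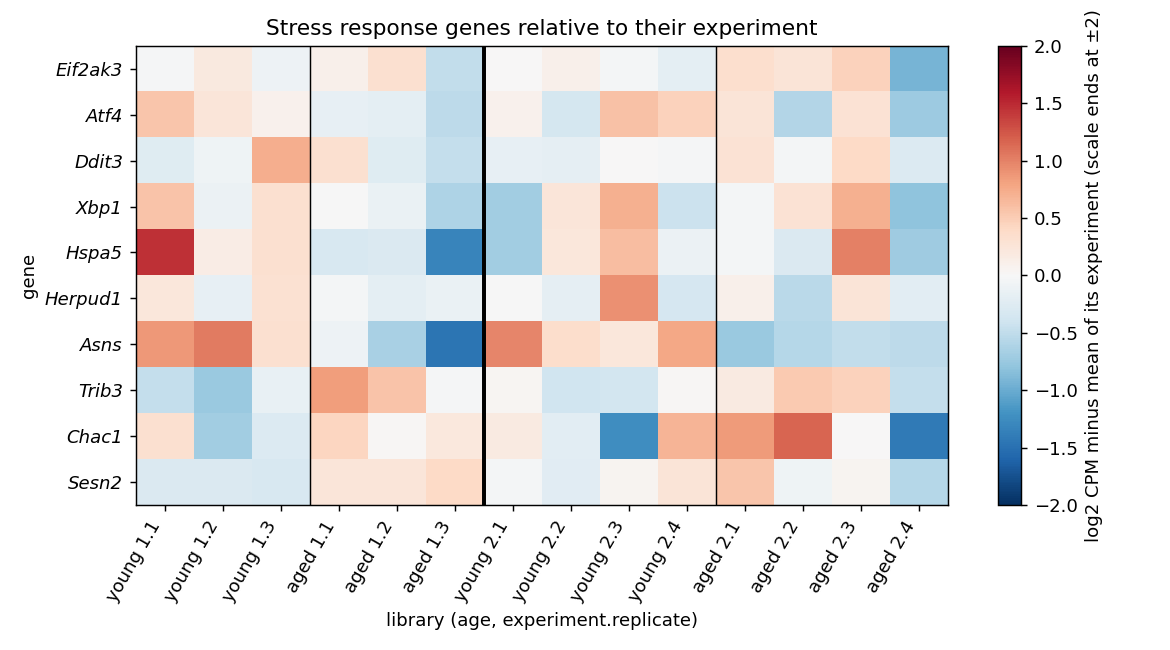
Log2 CPM of each gene minus its mean in the same experiment, by library, with the color scale ending at ±2 and lines between the age groups and the experiments. Asns is below its experiment's mean in each aged library, and aged 2.4 is below it for all 10 genes.

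Within the experiments, no member passed the adjusted threshold. At an unadjusted p under 0.05, experiment 1 gave 3 members (Hspa5, Asns and Trib3) against 6.64% of all targets, and experiment 2 gave 1 (Asns) against 3.42%. After adjustment edgeR called 0 targets (0%) in experiment 1, 3 targets (0.0198%) in experiment 2 and 0 (0%) in the test of a difference between the experiments. At an unadjusted p under 0.05 that last test had 371 of 15184 targets and 0 of the 10 members. DESeq2 and limma-voom called 0 targets in it as well. Of 14998 targets DESeq2 called 90 in experiment 1 and 50 in experiment 2. Of 15184 targets limma-voom called 1 and 5, and no member was called by either tool. In experiment 1 the ages did not overlap for 5 of 10 members. Trib3 and Sesn2 were above in all aged libraries, against 9.09% of targets, and Atf4, Hspa5 and Asns below, against 9.05%. Wherever Asns enters these counts its part is a description, since it was kept for its young levels. For 6 of 10 members the experiments had the same sign, against 52.1% of all tested targets.

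Across the 14 libraries, Xbp1 and Hspa5 rose and fell together. On log2 CPM centred within experiments, Pearson's r was 0.849 (permutation p = 7e-05, adjusted 0.00315) and Spearman's rho was 0.837 (permutation p = 0.00051, adjusted 0.023). Pearson's r was 0.813 without the 2 libraries with the most extreme Xbp1, 0.946 within experiment 1 and 0.893 within experiment 2. Of the 45 pairs among the 10 genes, this was the 1 with an adjusted permutation p under 0.05. Atf4 and Hspa5 had r = 0.693 and rho = 0.706 (adjusted permutation p = 0.105 and 0.149), with r = 0.687 without the 2 most extreme libraries, 0.967 within experiment 1 and 0.545 within experiment 2. Such values share the library, its depth and its receptor reads. They were centred by experiment and not by age. In experiment 1 all aged libraries lay below all young ones for both Atf4 and Hspa5.

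**Figure D4:**
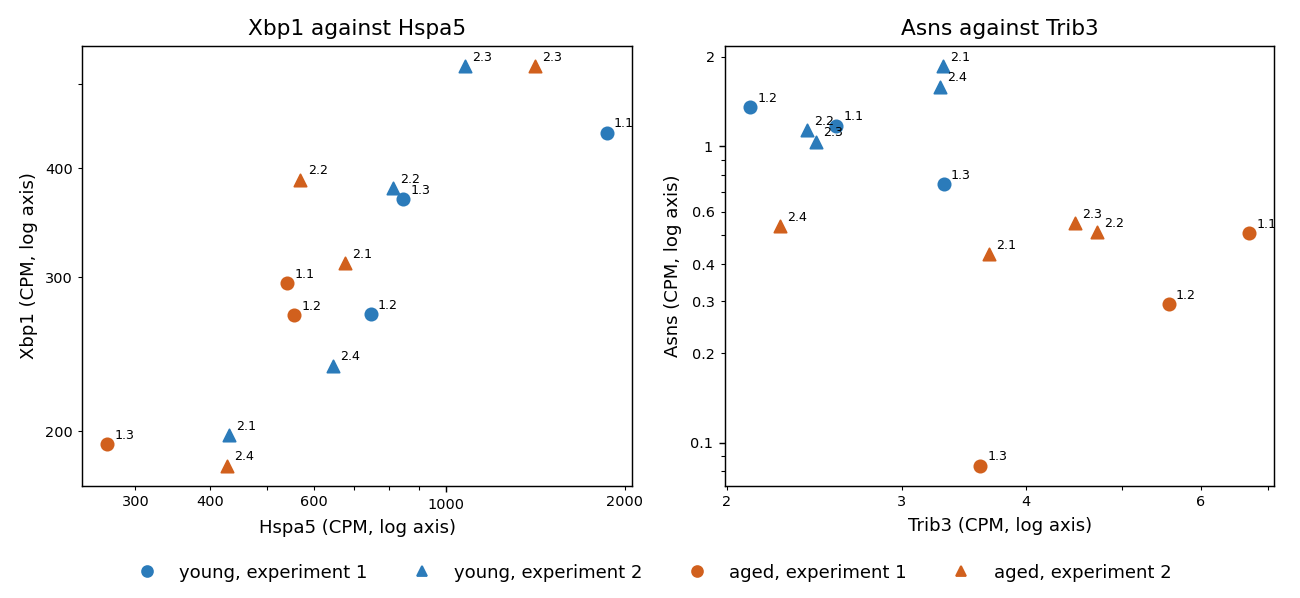
Levels in each library (CPM, both axes logarithmic; numbers give experiment and replicate), Xbp1 against Hspa5 on the left and Asns against Trib3 on the right. Libraries of both ages lie along the same rise on the left, while on the right all aged libraries lie below 0.6 CPM of Asns, and 6 of the 7 lie to the right of every young library.

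Genes whose level followed a member most closely were taken from 10749 genes averaging 5 CPM or more, by Pearson's r over the 14 libraries on the same centred scale. They were picked for a high r, so the values are descriptions. For Atf4 they were Pramel12 (0.972), Ppp1r15a (0.965), Nup205 (0.965), Sgk1 (0.950) and Ddx24 (0.946). For Hspa5 they were P4ha1 (0.961), Impdh1 (0.934), Atp2a2 (0.922), Snd1 (0.903) and Creld2 (0.901). For Ddit3 the highest values were lower, from Map7d1 (0.830), Oip5os1 (0.816) and Emc8 (0.816) to Arhgef11 (0.786) and Rnf157 (0.784). Ppp1r15a encodes GADD34, the subunit that directs a phosphatase to eIF2 and so ends the integrated stress response. P4ha1 and Creld2 encode ER proteins, and Atp2a2 encodes SERCA2, the pump that fills the ER with calcium.

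The wider pathway was read from 9 further lists, and no gene of them passed the adjusted threshold. For the counts of direction below, 54.4% of all tested targets were higher in aged libraries. The list of eIF2 kinases, eIF2 and its phosphatases also held other genes: Eif2b1 to Eif2b5, Eif2a, Gcn1, Impact, Dnajc3 and Nck1. Of its 16 tested genes, 13 were lower and 3 higher in aged libraries, with a median log2 fold change of −0.09. Among them Ppp1r15a was at 140.3 ± 61.7 against 230.5 ± 105.2 CPM (SD), a log2 fold change of −0.72 (edgeR adjusted p = 0.70). Eif2ak2, the eIF2 kinase PKR that double-stranded RNA activates, had a log2 fold change of −0.40, and Impact, an inhibitor of the amino acid sensor GCN2, had 0.41. Of 17 aminoacyl-tRNA synthetases, which load amino acids onto tRNA and include ATF4 targets, 14 were lower and 3 higher (median −0.08), with values of −0.22 for Wars, −0.19 for Iars and −0.21 for Aars. None of the 17 had an unadjusted p under 0.05.

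Of 21 tested genes listed as ATF4 targets, most of them in amino acid and one-carbon metabolism, 13 were higher and 8 lower (median 0.06). Slc38a2, a neutral amino acid transporter, was at 226.0 ± 38.8 against 334.4 ± 87.8 CPM (SD), a log2 fold change of −0.57 (edgeR adjusted p = 0.381). Slc7a11, the cystine transporter, had a log2 fold change of 2.03 on 0 to 3.18 CPM per library (adjusted p = 0.628), and Vegfa had −0.44. A list of transcription factors of the response also held Ddit4, which encodes an mTORC1 inhibitor and not a transcription factor. Of its 13 tested genes 8, Ddit4 included, were higher and 5 lower (median 0.08). Atf3, a stress-induced factor, was at 43.8 ± 31.3 against 232.4 ± 204.0 CPM, a log2 fold change of −2.50 with wide overlap, since young libraries ran from 8.92 to 454 CPM (adjusted p = 0.414). Cebpb and Creb3 had log2 fold changes of 0.31 and −0.12.

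The lists for the ER itself lay close to 0. Of 25 ER chaperones and folding enzymes, 16 were lower and 9 higher (median −0.05), with −0.21 for the proline isomerase Ppib, −0.20 for the folding sensor Uggt1 and 0.32 for the oxidase Ero1lb. Within the experiments the chaperone median was −0.25 in experiment 1 and 0.09 in experiment 2. For all tested targets the medians were 0.11 and −0.0003. The 21 tested genes of IRE1, XBP1 targets and translocation had a median of −0.04, with Ssr2 at −0.22, Ssr1 at −0.31 and Kdelr2 at −0.20. The 19 tested genes of ER-associated degradation had a median of −0.03, with Edem1 at −0.22 and Erlec1 at 0.15. For the degradation genes the medians were −0.31 in experiment 1 and 0.11 in experiment 2. The list named for cell death downstream of CHOP held genes that promote death and genes that oppose it, such as Bcl2 and Mcl1. Its 10 tested genes had a median of 0.02, with Bcl2l11 at 0.29, Casp12 at 0.29 and Tnfrsf10b at 0.41. A median over both kinds gives no direction for cell death. The mitochondrial unfolded protein response (12 tested) had a median of 0.06, with Dele1 at −0.14, Oma1 at 0.28 and Spg7 at 0.22.

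**Figure D5:**
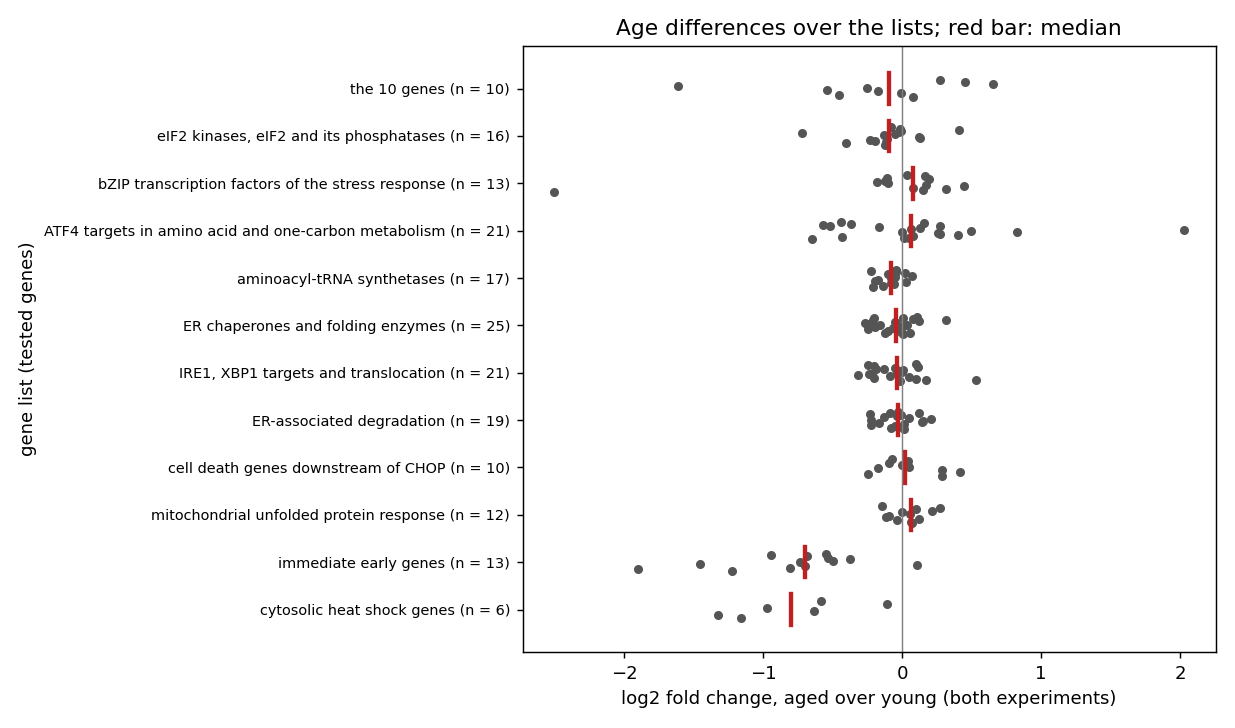
Log2 fold change, aged over young, over both experiments for every tested gene (points) of the 10 genes, 9 pathway lists and 2 lists of other stress responses, with the median of each list as a red bar. Medians of the 10 genes and the 9 pathway lists lie between −0.09 and 0.08, and those of immediate early and cytosolic heat shock genes at −0.70 and −0.80.

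Other signals moved between the libraries beside these genes. Immediate early genes, which rise within minutes of a stimulus and also during cell isolation, had a median log2 fold change of −0.70, with 12 of 13 tested genes lower in aged libraries. Their sum was 2957 to 10429 CPM in aged against 2936 to 25739 CPM in young libraries. The 3 libraries with the most Atf4, young 2.3, young 1.1 and young 2.4, were also the 3 with the highest immediate early sums, at 25570.0, 25739 and 19822 CPM. Cytosolic heat shock genes were lower in aged libraries for 6 of 6 tested genes (median −0.80), with Dnajb1 at 81.2 ± 15.7 against 158.7 ± 65.8 CPM (SD; edgeR adjusted p = 0.245). No gene of either list passed the adjusted threshold, and their part in the values of Atf4 or Asns was not tested.

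Leukocyte markers were higher in aged libraries for 10 of 10 genes, with a summed level of 536 to 1855 CPM in aged against 404 to 871 CPM in young libraries, highest in aged 1.3. Of 10 tested Kupffer cell markers 10 were higher (median log2 fold change 1.66), as were 6 of 6 for B cells (3.24) and 7 of 8 for T and NK cells (1.72). The medians were unequal between the experiments, at 3.46 in experiment 1 and 0.94 in experiment 2 for leukocyte, 5.51 and 2.23 for B cell and 3.88 and 0.14 for T and NK cell markers. No gene of these lists passed the adjusted threshold. LSEC markers summed to 23911 to 38764 CPM in aged against 31132 to 42049 CPM in young libraries, with 9 of 12 lower in aged. Hepatocyte markers summed to 487 to 5413 CPM in aged, again highest in aged 1.3, and 406 to 1799 CPM in young libraries. Plasma cells, which carry high Xbp1 and ER chaperones, have the markers Jchain and Mzb1. Jchain was at 1.40 to 162 CPM in aged against 0.169 to 10.6 CPM in young libraries. Of 7 tested plasma cell markers 6 were higher in aged libraries, with none past the adjusted threshold. The exception was Cd38, at 794 ± 172 against 872 ± 226 CPM (SD), which makes up most of the list's sum of 723 to 1061 CPM in aged and 546 to 1235 CPM in young libraries. Their part in the Xbp1 and Hspa5 levels was not tested. With the mean log2 level of the leukocyte markers as a further term, the log2 fold changes were −1.47 for Asns (edgeR adjusted p = 0.363), −0.38 for Atf4, 0.63 for Trib3, −0.31 for Hspa5 and 0.15 for Chac1. The last 2 were −0.54 and 0.45 without the term.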

How the data were processed

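The Ion AmpliSeq mouse transcriptome panel amplifies a short target per gene. The authors deposited raw, unnormalised read counts per RefSeq transcript target, 1 file for each of 14 libraries. HTSeq 0.6.0 and DESeq2 1.18.1 are named, with no role, in the submitters' processing notes. Aligner, build and strand setting: not given in the sources used here. The 5 bookkeeping entries (1.24 to 3.04% of reads) were left out. Symbols came from RefSeq (GRCm38.p6) for 18128 targets with and 4324 without their version, and from GENCODE for 110, while 1368 stayed under their identifiers.

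Counts were analysed with edgeR 4.0.16 in R 4.3.3: filterByExpr by age and experiment (15184 targets), TMM, and the quasi-likelihood F test with experiment as a term, or 4 means for each experiment and their difference. Benjamini-Hochberg adjustment ran over all tested targets. Each SE is the log2 fold change divided by the root of F. Log2 CPM used a prior count of 2. Exact permutations exchanged ages within experiments, and correlations used 100000 permutations. Alternatives included DESeq2 1.42.0 and limma-voom 3.58.1, other scalings and filters, further terms and leaving out libraries. The steps were tested on simulated data. Intervals and tests on reads without molecular identifiers do not separate counting from amplification error.

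The members and lists were chosen with earlier results of these data known. Named genes were all 10 members, the 3 with the smallest p in each list and the 5 most alike to Atf4, Hspa5 and Ddit3. Of these, 1 gene is not reported here. Other genes named are examples from the lists. Replicate numbers were not treated as pairs. Same-numbered residuals correlated from −0.315 (replicate 2.4) to 0.741 (replicate 2.3), and the cause of the high value for 2.3 was not tested.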

Additional observations from a re-analysis of the deposited data

Results flagged for a closer look

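Hspa5 in aged 2.3 was at 1410.0 CPM, apart from the other aged libraries, of which the nearest was at 677 CPM. Herpud1 in young 2.3 was at 452 CPM, apart from the other young libraries, of which the nearest was at 272 CPM. The gaps were 0.643 and 0.688 of the range of the 7 libraries, above the 95% critical value of Dixon's test. Chance flags about 1 in 20 groups, and 20 groups were looked at. Without aged 2.3 the log2 fold change of Hspa5 was −0.84 (edgeR adjusted p = 0.54), and without young 2.3 that of Herpud1 was −0.07.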

How the results depend on the processing

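Of 29 alternatives, the number of members called over both experiments was 0 in 28 and 1 with DESeq2 (Asns). Outside these 29, the fit with the receptor term was also run without each library. It called Atf4 without young 2.2 (84 of 15112 targets called) and without aged 2.4 (155 of 15155 targets called). No member was called in either experiment or in the test of their difference under any of the 19 alternatives run for each. The number of all targets called, 34, was 143 with DESeq2, 58 with the receptor term, 65 with the receptor and leukocyte terms together, 19 with no experiment term, 11 with the leukocyte term, 11 with aged 1.1 and aged 1.2 summed, and 2 with the replicate block. Leaving out 1 library gave 4 (without young 2.4) to 29 (without young 2.2). With the replicate block Asns had a log2 fold change of −1.64 (adjusted p = 0.267) and Atf4 −0.47 (0.476), and the block changed no member's call. The sign of Ddit3 turned with no TMM scaling (0.011), limma-voom (0.072), no experiment term (0.046), the leukocyte term (0.036) and both terms (0.012), and its value was −0.105 to 0.145 when 1 library was left out. Eif2ak3 turned to −0.056 with both terms. The other 8 members kept their sign in every fit that tested them, among them Asns at −1.79 to −1.44 and Atf4 at −0.61 to −0.39 without 1 library. The cause of these shifts was not tested. The receptor and leukocyte terms together and the filter by age alone were chosen after seeing the data. The filter at 5 CPM left Asns, Trib3 and Chac1 untested, and the filter by age alone left Asns untested. Depth limits Asns and Chac1 most, at 1 to 28 reads per library.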
